A study of Mus musculus with 2 samples.

Results

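The loci of Rag1, Rag2 and Dntt, 3 genes of antibody gene assembly, were described by the H3K4me1 regions called over them in mouse pre-B cells. Members were all called regions that overlapped by at least 1 base either a window of 220 kb on chromosome 2 (101380000 to 101600000 of the mouse build mm9), set around Rag1, Rag2 and the sequence upstream of them, or a window of 125 kb on chromosome 19 (41075000 to 41200000), set around Dntt. They numbered 29 of the 48130 regions in the deposited list, 22 in the Rag1-Rag2 window and 7 in the Dntt window. H3K4me1 is histone H3 carrying a single methyl group on lysine 4, a mark of enhancers and of the flanks of active promoters.

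The study held 2 samples of pre-B cells, B cell precursors that normally have a heavy chain and go on to rearrange light-chain genes. One was a chromatin immunoprecipitation library made with an antibody to H3K4me1 and the other an input library made with none. Both came from the bone marrow of C57BL/6 (B6) mice of both sexes, 6 to 14 weeks old, with the genotype RAG1-/- and a rearranged IgM transgene. All cells therefore lacked the product of a gene described here, and the heavy chain was supplied by the transgene. The sources used here do not say how the Rag1 allele was altered. A stretch at Rag1 without a called region therefore cannot be told apart from sequence missing in the allele. The H3K4me1 library held 50945360 tags, and the input library was not analysed here beyond its use by the authors in calling regions. With 1 library per group there is no spread between replicates and no test, and the intervals given cover counting error only. The list holds positions and no gene expression, so the identity of the cells could not be checked against their marker genes.

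Rag1 and Rag2 encode the subunits of the recombinase that cuts DNA at the signal sequences beside V, D and J gene segments. Rag1 carries the nuclease activity, and Rag2 is its cofactor, which binds histone H3 trimethylated at lysine 4. Dntt encodes terminal deoxynucleotidyl transferase, a polymerase that adds bases without a template at the joints before they are sealed, mostly at the heavy-chain rearrangements of the stage before pre-B cells. The recombinase genes are expressed in precursor B and T cells and are driven by distal enhancers as well as by their promoters.

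No gene was placed within its window, because the gene and promoter tables used here belong to the later build GRCm38.p6, whose coordinates do not apply to mm9. Gene order and strand were taken from those RefSeq tables. Rag2 lies directly before Rag1 on chromosome 2 and the genes point towards each other, Rag2 on the forward strand and Rag1 on the reverse strand. The protein-coding gene before Rag2 is Iftap, which overlaps it, and the gene after Rag1 is Traf6. On chromosome 19, Dntt is on the forward strand, after Blnk and before Opalin and Tll2. Blnk encodes the adaptor that carries the signal of the pre-B cell receptor.

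The promoters of the 3 genes are shown because the windows were set around them and because the genes are used together in the same precursor cells. All 3 were found in the RefSeq promoter table (GRCm38.p6), which gives 250 bases before and 50 bases after the start of transcription, on the strand of the gene. Capitals mark matches, on either strand, to 6 short motifs chosen with these sequences in view: CAGNTG (bound by E proteins), CCAAT (NF-Y), TGTGGT (Runx factors), TGGGA (the core bound by Ikaros), GAGGAA (ETS factors) and GTAAACA (Foxo factors).
Rag1: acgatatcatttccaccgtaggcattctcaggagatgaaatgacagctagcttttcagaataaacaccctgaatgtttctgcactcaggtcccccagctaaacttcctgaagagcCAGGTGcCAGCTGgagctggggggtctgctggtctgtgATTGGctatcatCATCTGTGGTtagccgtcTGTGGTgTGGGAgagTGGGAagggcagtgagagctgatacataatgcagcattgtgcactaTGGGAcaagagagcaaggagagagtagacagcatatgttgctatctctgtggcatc
Rag2: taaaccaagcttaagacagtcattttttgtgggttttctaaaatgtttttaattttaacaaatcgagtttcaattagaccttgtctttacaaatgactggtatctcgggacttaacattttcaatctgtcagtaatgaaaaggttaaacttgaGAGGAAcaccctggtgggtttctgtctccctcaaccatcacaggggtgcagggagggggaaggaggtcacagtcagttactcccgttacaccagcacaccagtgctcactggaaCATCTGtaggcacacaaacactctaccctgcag
Dntt: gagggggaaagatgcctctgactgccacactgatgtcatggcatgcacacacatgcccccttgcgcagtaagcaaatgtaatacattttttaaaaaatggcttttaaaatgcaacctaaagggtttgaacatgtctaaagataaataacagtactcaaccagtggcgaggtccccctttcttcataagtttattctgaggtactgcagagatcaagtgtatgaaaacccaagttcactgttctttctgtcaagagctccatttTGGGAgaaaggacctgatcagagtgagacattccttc

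The Rag1 promoter held matches to 4 of the 6 motifs, that of Rag2 to GAGGAA and CAGNTG, and that of Dntt to TGGGA only. How many promoters hold as many of these motifs was not counted. The motifs were chosen with these sequences in view, so the difference between the genes is a description only. Rag1 had CAGNTG at 3 positions, beginning 135, 128 and 85 bases before the start. It had TGTGGT at 2 positions, beginning 81 and 67 bases before the start, the first of them overlapping the last CAGNTG match, and CCAAT on the opposite strand at 97 bases before. It also had TGGGA at 3 positions. Rag2 had GAGGAA beginning 97 bases before the start and CAGNTG on the opposite strand at base 18 after it. Dntt had only TGGGA, at base 14 after the start. These letters are common. Of 32851 promoters in the table, 51.4% held CAGNTG, 37.4% CCAAT, 16.8% TGTGGT, 61.6% TGGGA, 28.3% GAGGAA and 3.65% GTAAACA. The Rag1 promoter was 50.0% G or C, that of Rag2 43.0% and that of Dntt 42.3%, beside a median of 52.7% over the table. A match is a description of the sequence and no evidence of binding, and whether a called region covers these promoters was not determined.

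The 2 windows differed in the form of their called regions. The Rag1-Rag2 window held 22 regions of 501 to 7132 bases. The gaps between them ran from 508 bases to 30.5 kb, and 6 of 21 were under 1 kb. The Dntt window held 7 regions, of which 1 was 36.5 kb long and began 4.16 kb from the start of the window. Regions covered 64.3 kb of the Rag1-Rag2 window (29.2%) and 46.4 kb of the Dntt window (37.1%). The longest member accounted for 11.1% of the covered bases in the Rag1-Rag2 window and for 78.6% in the Dntt window. The median length was 2012 bases (range 501 to 7132) in the former and 2183 bases (range 501 to 36492) in the latter, beside 1497 bases over all regions.

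**Figure D1:**
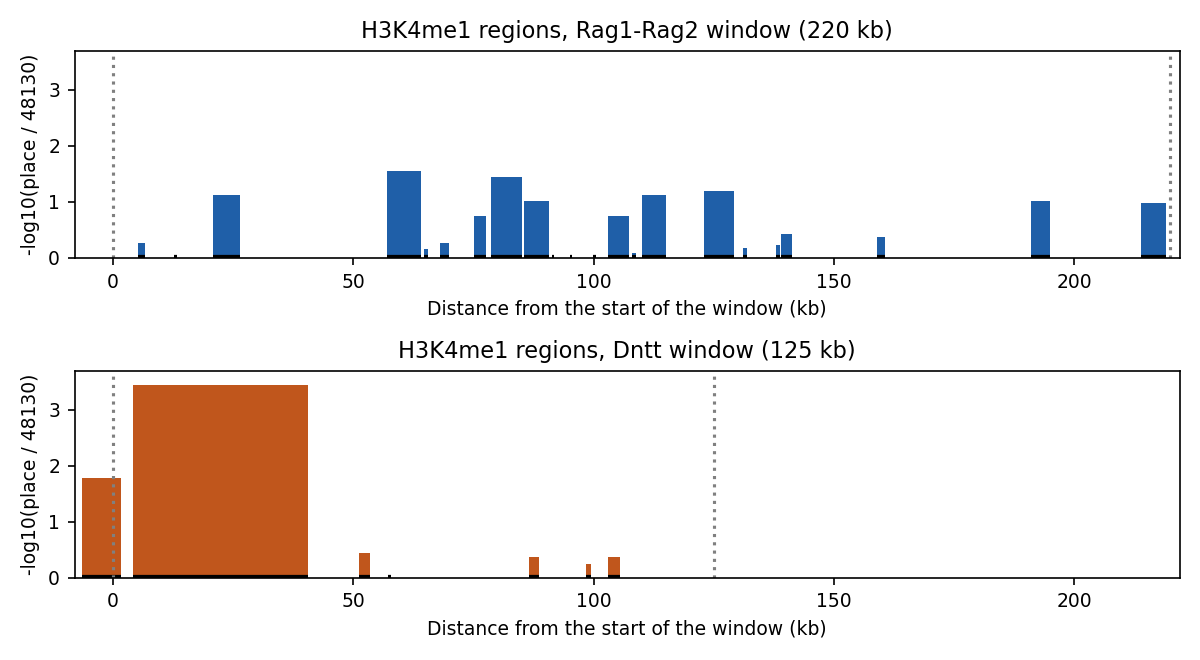
Called H3K4me1 regions in the Rag1-Rag2 window (top) and the Dntt window (bottom), at their distance in kb from the start of the window; dotted lines mark the window edges. Bar width is region length, black base lines mark where each region lies, and bar height is minus the log10 of the region's place in the deposited list divided by 48130, so that the 36.5 kb region of the Dntt window, in place 17, is the highest.

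The Rag1-Rag2 window held 22 regions (exact Poisson 95% interval 13.8 to 33.3), or 10.0 per 100 kb. When the 19 autosomes were cut into 10905 tiles of the same length, 1.29% of tiles held at least as many regions, the median tile held 2 and the fullest 30. By covered bases, 1.55% of tiles had at least as many as this window. The Dntt window held 7 regions (exact Poisson 95% interval 2.81 to 14.4), or 5.60 per 100 kb. That number was matched or passed by 14.5% of 19199 tiles of 125 kb, but only 1.09% of them had as many covered bases. Among tiles with at least 1 region, 2.19% held as many regions as the Rag1-Rag2 window and 28.6% as many as the Dntt window, and on chromosome 19 alone the share for the Dntt window was 21.3%. The windows were placed around known genes, and 40.9% and 49.1% of the tiles of the 2 sizes held no region, so these shares describe where the windows lie in the genome and test nothing. Per 100 kb the Rag1-Rag2 window had 1.79 times as many regions as the Dntt window (exact 95% interval 0.737 to 4.95). This interval and the Poisson intervals treat regions as independent, which neighbouring regions are not, so they are too narrow and the difference was not tested. By covered bases the order was the opposite, with 1.27 times the covered share in the Dntt window, and without the 36.5 kb region the covered share of the Dntt window was 7.93%.

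**Figure D2:**
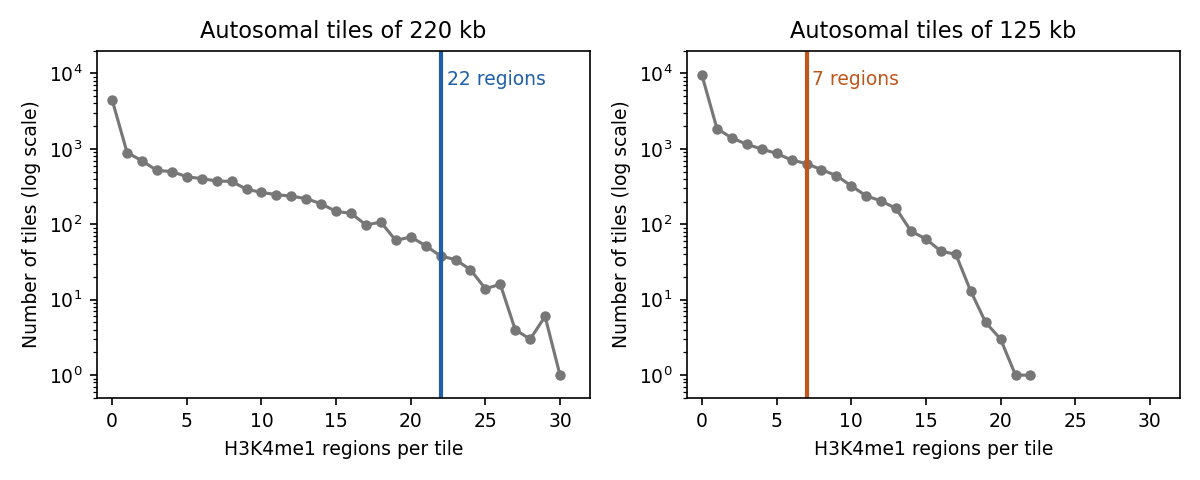
Number of autosomal tiles (log scale) by the number of H3K4me1 regions in the tile, for tiles of 220 kb (left) and 125 kb (right), with coloured lines at the 22 regions of the Rag1-Rag2 window and the 7 regions of the Dntt window. The first line lies in the thin tail, where 1.29% of tiles reach it, and the second where 14.5% do.

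In the Rag1-Rag2 window, the regions fell into 5 groups when gaps up to the stitching distance widely used to define super-enhancers were bridged. The main group spanned 84.3 kb, from 101436980 to 101521240, and held 16 of the 22 members. They covered 45.6 kb, or 54.2% of the group. Of 20377 such groups in the genome, 10035 were single regions, which cannot hold 16. At least 16 regions were held by 0.510% of all groups, and 1.00% covered as many bases. The main group was number 204 by covered bases. A gap of 30.5 kb separated it from a group of 5 regions at the start of the window, of which 3 were members and 2 lay outside. After it came 2 single regions, behind gaps of 17.4 and 30.4 kb, and after a further gap of 19.2 kb a group of 3 regions that ran out of the window. The core depended on the bridged distance: with gaps of up to 5 kb bridged, the members fell into 10 groups in place of 5, and gaps of 5355, 7769 and 5735 bases divided the core.

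The longest region of the Rag1-Rag2 window, 7132 bases (101436980 to 101444111), opened this core directly after the 30.5 kb gap. A second region of 6329 bases (101458666 to 101464994) lay further on in the core, and only 607 bases after it began another of 5149 bases (101465602 to 101470750). Of the 5 longest, the third by length, 6215 bases (101502609 to 101508823), lay in the second part of the core. The remaining one, of 5791 bases (101400660 to 101406450), stood outside the core on the other side of the 30.5 kb gap. The member nearest the start of the window was 1601 bases long (101385125 to 101386725), and the one nearest its end was 5124 bases long (101593871 to 101598994). In all, 7 members reached 5000 bases (31.8%, beside 8.92% of all regions), and 4 had the shortest length in the list, 501 bases (18.2%, beside 14.3%).

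Short gaps were frequent between the Rag regions. A gap is a stretch without a called region, and the signal within gaps was not examined. Of the 21 gaps between neighbouring members, 6 were shorter than 1 kb (28.6%), beside 11.9% of all autosomal gaps. All 6 lay within the core and measured between 508 and 915 bases. They separated the 7132-base region from a region of 758 bases, the 6329-base from the 5149-base region, and the latter from a region of 501 bases. Another 2 of them stood on either side of a region of 744 bases, between members of 4409 and 5088 bases, and the last lay between regions of 881 and 2204 bases at the end of the core. The median gap was 3.21 kb, beside 8.80 kb between autosomal regions. A window with many regions has shorter gaps, so the share of short gaps and the median partly repeat its region count. No gap in the Dntt window was under 1 kb, but with so few gaps this absence says little. It also depends on the window edge. Just before the window such gaps did occur, for example between regions that ended at 41057740 and began at 41058650. The 6 gaps in the Dntt window ran from 2566 to 28706 bases, with a median of 6.84 kb.

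The Dntt window began with its 2 longest regions. The first, of 8027 bases (41068568 to 41076594), crossed the edge of the window and had only 1595 bases inside it. After 2566 bases without a called region came the region of 36492 bases (41079161 to 41115652), which alone covered 29.2% of the window. It was the longest on chromosome 19 and number 16 by length among all 48130 regions. Among the tiles of 125 kb, 0.0677% (13 tiles) had as many bases under 1 region, although a tile edge can divide a long region and the Dntt window was not placed on such a grid. In the Rag1-Rag2 window no region came near this size, and 12.4% of tiles of 220 kb had as many bases under 1 region as its longest.

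The rest of the Dntt window was sparse. A region of 2167 bases (41126214 to 41128380) followed 10.6 kb after the long one, and a region of 501 bases (41132326 to 41132826) 3.94 kb later. Then came the longest gap of the window, 28.7 kb. Behind it stood a last group of 3 regions, of 2183 bases (41161533 to 41163715), 1048 bases (41173459 to 41174506) and 2419 bases (41178244 to 41180662). They spanned 19.1 kb and were followed by 100.0 kb without a region. Covered bases at this locus were concentrated towards the lower coordinates, the side on which Blnk lies in the gene order.

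The marked stretch continued beyond the window. With gaps bridged in the same way, the long region belonged to a group of 8 regions from 41036755 to 41132826, of which 4 were members. The group spanned 96.1 kb, of which 75.2 kb (78.3%) was covered, and it was number 40 of 20377 groups by covered bases. The 125 kb directly before the window held 5 regions covering 27.6%, and the 125 kb after it held 1 region covering 1.01%. On chromosome 2 the contrast with the surroundings was on both sides. The 220 kb before the Rag1-Rag2 window held 2 regions, both of 501 bases, covering 0.455%, and the 220 kb after it held 8 regions covering 6.02%, beside 29.2% within.

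**Figure D3:**
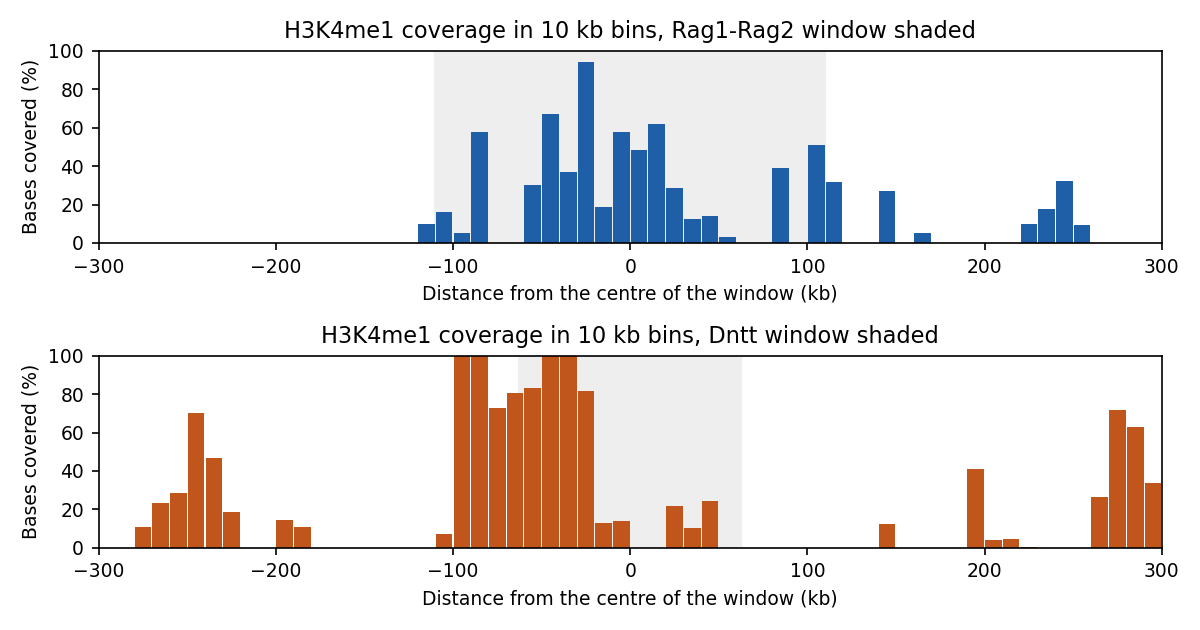
Share of bases under an H3K4me1 region in bins of 10 kb, against the distance in kb from the centre of the Rag1-Rag2 window (top) and the Dntt window (bottom), with the windows shaded. Coverage on chromosome 2 averaged 0.455% over the 220 kb before the shaded window and 6.02% over the 220 kb after it. Those flanks extend past the bins shown. The bins directly outside the window were 10.0% covered before it and 31.8% after it. The block in the Dntt window continues past the lower edge, where the 125 kb before the window are 27.6% covered.

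The deposited list carries no tag count per region, but the order of its lines is not arbitrary. Lines are sorted neither by position (Spearman rank correlation of place with start -0.007 on chromosome 2 and 0.056 on chromosome 19) nor simply by length, although long regions come first (-0.973 over all regions). From place 21182 on, the list contains long runs in genome order, 146 runs of at least 100 regions holding 25239 regions, the form of a list sorted on a value with ties. Among regions of 501 bases, place also rose with the number at the end of the region's name, with rank correlations from 0.906 to 0.968 over 20 chromosomes. The sorted value is not named in the sources used here, and place is given below as an order and not as a measurement. Since these correlations are across regions of 1 library, which are not independent, no p-value is given.

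By this order, the long Dntt region was in place 17 of 48130, the first of all regions on chromosome 19, and the region across the edge of the window was in place 806. The other 5 members at Dntt lay between places 17674 and 48055. The 501-base region was the last of them, within a run of places 47859 to 48071 and behind 98.9% of the regions of its length. The Dntt window thus combined one of the foremost regions of the list with one near its end.

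In the Rag1-Rag2 window places ran from 1332 to 46395, with a median of 19310. The 7132-base region that opens the core was in place 1332, and the 6329-base region in place 1758. The 6215-base region was in place 3012, the 5791-base region in place 3658 and the 5149-base region in place 4623. In all, 7 of 22 members (31.8%) were among the first 10% of the list, a share of 10.0% for all regions by construction, and 2 of 7 (28.6%) at Dntt. Length and place are nearly the same order, so these shares repeat what the lengths show.

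Set against regions within 10% of their own length, the members as a group were near the background and differed widely among themselves. Of the 29 members, 15 came before the median place of regions of like length, beside 51.0% of all regions. Of these, 13 were in the Rag1-Rag2 window and 2 in the Dntt window. Within a run, lines stand in genome order, so chromosome 2 tends to come early in it and chromosome 19 late. The split between the windows was not corrected for this order. Set against regions of the same chromosome only, 13 of the 29 members came before the median. The share of all regions ahead by that comparison was not computed, so this number has no background. Some Rag members stood far ahead, and those named next were chosen after their values were seen. A region of 2371 bases (101455173 to 101457543), 1.12 kb before the 6329-base region, was in place 8455, with only 2.26% of 4019 regions of like length before it. A region of 881 bases (101517543 to 101518423) had 4.68% before it, and the 7132-base and 6329-base regions had 7.25% and 7.47%. Other members of the same core lay far behind. A region of 1820 bases (101447998 to 101449817) had 89.5% of regions of like length before it and one of 4409 bases (101483102 to 101487510) had 88.7%. At Dntt, the region across the window edge had 2.31% before it, and the regions of 2183 and 2419 bases had 84.8% and 93.8%. The 36.5 kb region had only 8 others of like length, of which 50.0% came before it. Within 25% of its length, 37.5% came before it. So few regions cannot show whether its place differs from that of its length.

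**Figure D4:**
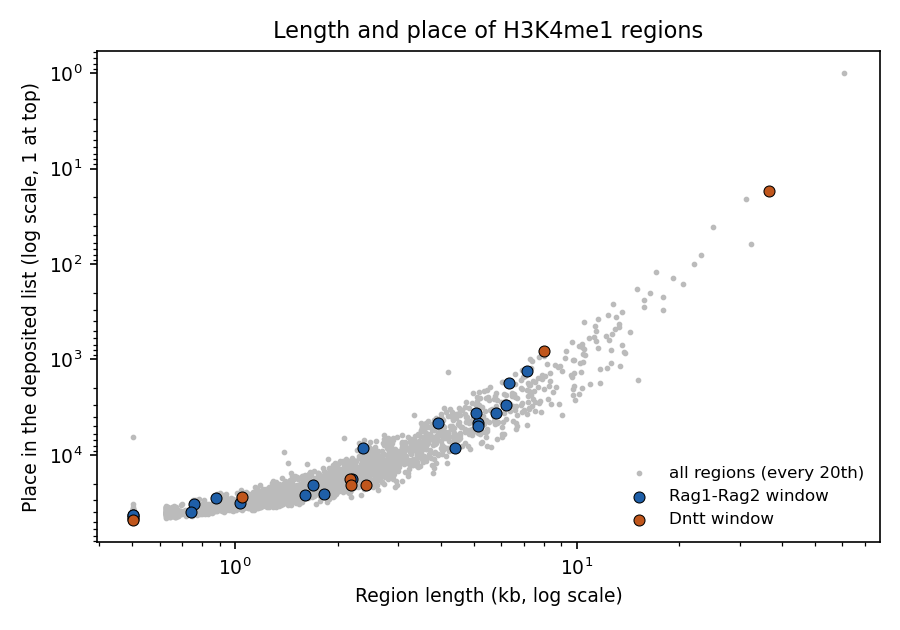
Place in the deposited list (log scale, place 1 at the top) against region length in kb (log scale), for every 20th region of the list (grey), the 22 members in the Rag1-Rag2 window (blue) and the 7 members in the Dntt window (orange). Members follow the band of all regions, and the 36.5 kb region in place 17 lies at its upper end.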

How the data were processed

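H3K4me1 regions were called by the authors with HOMER 4.7 after alignment with Bowtie 0.12.9 to mm9, per the submitters' processing notes. Per the file headers, findPeaks was run in histone style against input with a peak size of 500 bases, a minimum distance of 1000 bases between peaks, a Poisson threshold of 0.001 for peaks, and 4-fold with a Poisson threshold of 1e-04 over input, and peaks were stitched into regions. The score deposited by the authors is 1 in every region and carries no measurement. Start positions were changed to count from 1.

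Members, overlaps, gaps, groups of regions and tiles were computed in Python 3.11.15 (pandas 2.3.3, numpy 2.4.6 and, for intervals, scipy 1.17.1). Regions were joined into groups over gaps of up to 12.5 kb. Full tiles were laid from the first region of each autosome. The window, tile, grouping and like-length functions were checked on simulated data with known answers. The windows, members and lists were chosen with earlier results of these data known, and use of the order of the list was added after the file was seen. Regions named were the 5 longest of each window, those nearest its edges and those beside its longest gap, with exceptions stated. Alternatives covered window edges, overlap rule, region length, tiling and the bridged gap. Placement of regions on gene bodies and a count of other recombination genes were planned but need gene positions on mm9 and were left out.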

Additional observations from a re-analysis of the deposited data

How the results depend on the processing

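The number of regions in the Rag1-Rag2 window was 15 to 26 under the alternatives (main value 22). That in the Dntt window was 5 to 6 under all but one, and 11 when the window was widened by 25 kb on each side (main value 7). Coverage of the Rag1-Rag2 window (29.2%) was 27.2% for regions of at least 1000 bases, 25.3% in the widened window and 31.0% in the window narrowed by 25 kb on each side. Coverage of the Dntt window (37.1%) was 36.7%, 38.6% and 28.7% under the same alternatives, and 7.93% without its longest region, an alternative added after seeing the data. The share of tiles with as many regions as the Rag1-Rag2 window (1.29%) was 2.19% among tiles with a region and 1.55% by covered bases. That of the Dntt window (14.5%) was 21.3% on chromosome 19 alone, 28.6% among tiles with a region and 1.09% by covered bases. Groups of regions at the Rag genes numbered 10 with gaps of up to 5 kb bridged and 3 with gaps of up to 25 kb (main value 5), and those at Dntt numbered 4 with gaps of up to 5 kb (main value 2), which follows from the gap itself. The ratio of region density between the windows (1.79) turned to 0.787 by covered bases. It was 3.68 by covered bases without the longest Dntt region, so 1 region set its direction. The number of members ahead of the median place for their length (15) was 18 within 25% of the length and 13 on the same chromosome. The share over all regions was computed for the main value only, so the other 2 numbers have no background. Tags per region were not used here, so how near a region lies to the calling threshold is unknown.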

Other observations

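The H3K4me1 block that reached into the Dntt window had a large part outside it, on the side of Blnk in the gene order. The longest of the 5 regions in the 125 kb before the window was 20986 bases long (41036755 to 41057740 of mm9) and in place 174 of the list. It was followed by regions of 2245, 1149 and 3655 bases, in places 20499, 31314 and 5923, and then by the region of 8027 bases that crosses the window edge. Whether these regions lie on Blnk was not determined. A description bounded by the Dntt window divides this block.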
